A study of Mus musculus with 6 samples.

Results

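Cluster 0 was the largest of the 11 clusters, numbered 0 to 10, into which the authors had sorted the transcriptomes of mouse haematopoietic stem cells (HSCs). It held 4904 of 22378 cells, or 21.9%. Its members were the cells that the authors had assigned to it, and the values are those of its deposited gene table and its deposited pathway table, each a comparison with all other cells. The cell numbers were read back from the deposited p-values of genes seen in a single cell. Clusters 1 to 4 were of similar size, with 3747 to 3955 cells each, and the other 6 clusters held 10 to 1188.

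All mice were of the Gfp-Lc3 genotype, in which a green fluorescent tag marks the autophagosome protein LC3, and HSCs were purified from their bone marrow. Of the 3 young and the 3 old mice, 1 of each age was fed ad lib, 1 was fasted for 24 h, and 1 was refed for 24 h after such a fast, which gave 6 libraries of 1 mouse each. About 30000 HSCs were sorted per library and about 10000 were loaded for droplet single-cell RNA sequencing. The deposited tables pool the 6 libraries, so cluster 0 could not be split by age or feeding, no value has an error over animals, and no test over animals was possible. Because the clusters had been drawn on the same expression values, each difference between cluster 0 and the other cells is a description of what set it apart.

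HSCs are mostly quiescent cells that renew themselves and give rise to all blood lineages. Some of them carry transcripts of the megakaryocyte lineage, the source of platelets, while still meeting the surface definition of a stem cell. CDK6 is a cyclin-dependent kinase that pairs with D-type cyclins to drive cells out of quiescence into G1, and its amount differs between dormant and more readily activated stem and progenitor cells. RUNX transcription factors, GATA1 and their partners control many megakaryocyte genes.

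The leading genes of cluster 0 included the kinase gene Cdk6, the actin regulator gene Gmfg and the lineage genes Cd34 and Itga2b, and several genes of long-term stem cells, such as Procr and Mllt3, were lower than in the other cells. Cmtm7, which encodes a MARVEL-domain membrane protein of immune cells, stood first in the authors' deposited table of cluster 0, followed by Cdk6, Gmfg, Ramp1 and Serpinb1a. A gene was called higher or lower where the authors' deposited table gave a log2 fold change of at least 0.5 in size and an adjusted p under 0.05. That p is taken over cells and served only as a filter on noise. By this rule 409 of 17055 detected genes were higher in cluster 0 (2.4%) and 1130 were lower (6.63%). Most called genes were scarce: among the 8528 genes at or above the median mean level, 89 were higher (1.04%) and 167 were lower (1.96%). The rule drew its line between neighbours of nearly equal size, with Coro1a at 0.50 just inside and Ccdc88c at 0.498 just outside, and Relb at -0.50 just inside and C4b at -0.4996 just outside in the authors' deposited table.

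Levels are given as counts scaled to 10000 per cell and averaged over a cluster, solved from the deposited mean, fold changes and cell numbers. A mean over cells does not tell a transcript found in more cells from more transcript per cell. Cmtm7 stood at 7.43 in cluster 0 and at 5.47, 3.29, 4.29 and 4.71 in clusters 1 to 4. Cdk6 stood at 2.80 in cluster 0, against 1.30, 0.664, 0.990 and 1.22 in clusters 1 to 4. Cluster 0 was thus the highest of the 5 large clusters for both genes, and cluster 2 was the lowest. The difference from cluster 1 was 0.44 for Cmtm7 and 1.11 for Cdk6 on the log2 scale, and from cluster 2 it was 1.18 and 2.08. Among the smaller clusters, cluster 8 with 173 cells had more Cmtm7 than cluster 0, at 8.17, but less Cdk6, at 1.35.

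The other 4 marker genes had the same order at both ends, with cluster 0 highest and cluster 2 lowest of the 5. Gmfg, an inhibitor of the actin-branching ARP2/3 complex, stood at 3.61 in cluster 0 and at 1.52 to 2.37 in clusters 1 to 4. Ramp1, the partner chain that turns the calcitonin receptor-like receptor into a receptor for the neuropeptide CGRP, stood at 3.44 against 1.55 to 2.57. Serpinb1a, an inhibitor of neutrophil serine proteases, stood at 1.01 against 0.201 to 0.524. Runx3, a RUNX-family transcription factor, stood at 0.620 against 0.136 to 0.300. Cluster 1 was the next-highest of the 5 for all 6 genes, with cluster 4 close behind for Cdk6 (1.30 and 1.22) and Runx3 (0.300 and 0.280). Runx3 was higher than in cluster 0 in cluster 10, which held 10 cells, at 0.675. All 6 are protein-coding genes, placed by the GENCODE M21 annotation of GRCm38 at chr9:114756836-114781856 (Cmtm7), chr5:3341485-3531008 (Cdk6), chr7:28437447-28448233 (Gmfg), chr1:91179822-91225196 (Ramp1), chr13:32842092-32851185 (Serpinb1a) and chr4:135120652-135177990 (Runx3).

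**Figure D1:**
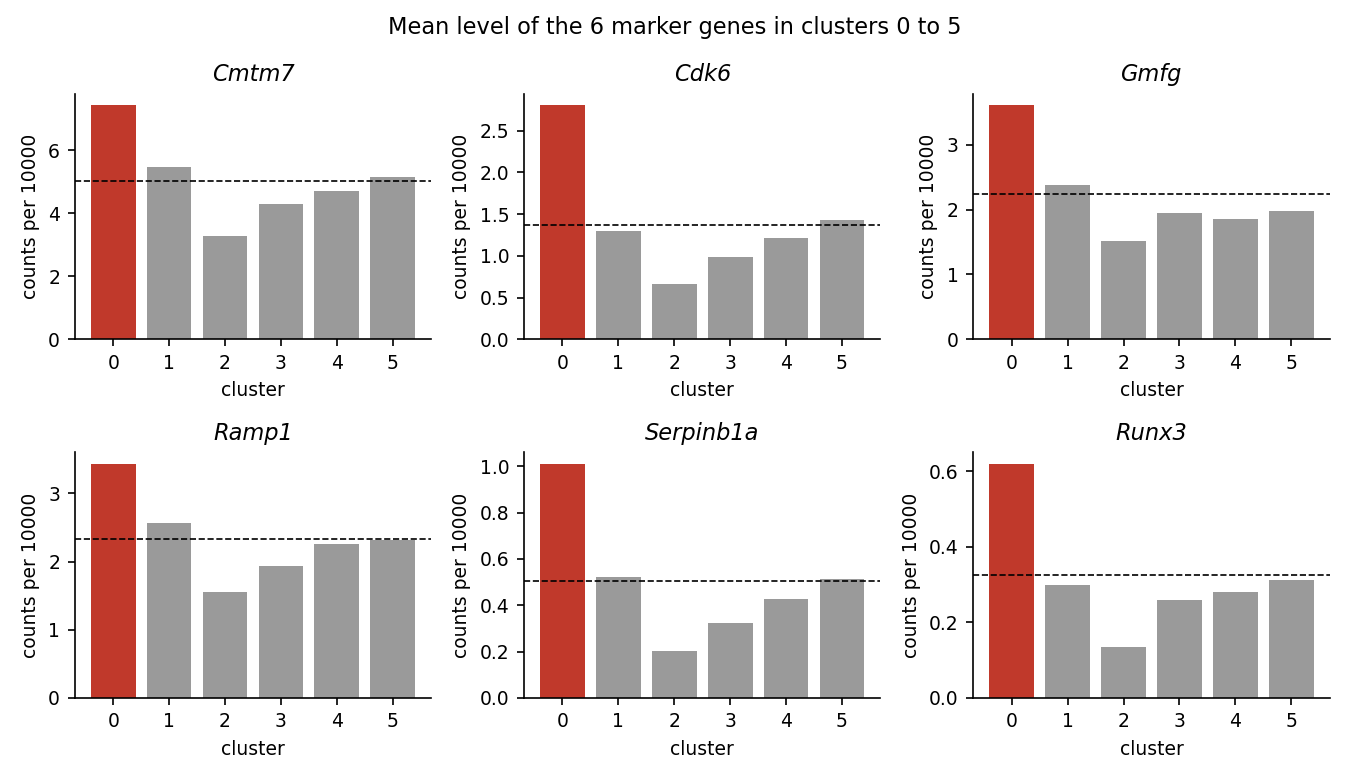
Mean level of the 6 marker genes (counts per 10000, vertical axis from 0) in clusters 0 to 5, with cluster 0 in red and the mean over all cells as a dashed line. Cdk6 falls from 2.80 in cluster 0 to 0.664 in cluster 2, and in each panel cluster 0 is the highest bar.

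The large clusters differed in estimated depth and less in the mitochondrial and ribosomal shares of their RNA. The depth per cell that would leave as many genes undetected as were undetected came to 13041 counts in cluster 0 and to 10538 to 15555 in clusters 1 to 4. This estimate takes the expression profile of all cells for every cluster, and depth itself was not measured. Mitochondrially encoded transcripts made up 4.29% of counts in cluster 0 and 3.97% to 4.41% in clusters 1 to 4, and ribosomal protein transcripts 37.0% against 36.6% to 38.0%. The median fold change of the 8528 better detected genes in the authors' deposited table was 0.02 on the log2 scale.

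The leading higher genes beside the markers included lineage genes and actin regulators. Cd34, a sialomucin absent from the most primitive adult mouse HSCs, stood at 1.31 in cluster 0 and at 0.506 to 0.801 in clusters 1 to 4. Itga2b, the CD41 integrin chain of the platelet fibrinogen receptor, stood at 0.770 against 0.225 to 0.400 in the same clusters. Nkg7, a granule protein best known from cytotoxic lymphocytes, had the largest fold change of the 15 first-listed genes, 2.09 in the authors' deposited table, with a level of 0.352 against 0.0334 to 0.107. In each of these genes cluster 0 lay above all 4 other large clusters. Hmgb3, a chromatin protein of stem and progenitor cells, stood at 1.40 against 0.729 to 0.879, and the actin regulators Coro1a and Tmsb10 at 3.49 and 4.33 against ranges of 2.17 to 2.70 and 2.71 to 3.18. All 3 were higher still in cluster 8, at 1.72 for Hmgb3, 4.47 for Coro1a and 5.47 for Tmsb10. In cluster 10 Coro1a stood at 4.16 and Tmsb10 at 4.35, the latter too close to cluster 0 to be ordered.

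For further leading genes, too, another cluster came close to cluster 0 or lay above it. Ctla2a, an inhibitor of cathepsin L-type proteases, stood at 11.04 in cluster 0, 10.8 in cluster 5 and 10.0 in cluster 1, while clusters 2 to 4 lay between 6.05 and 7.22. Rbm3, a cold-inducible RNA-binding protein, stood at 5.60 in cluster 0 and 5.14 in cluster 3, and at 7.51 in cluster 8. The choice of the 89 better detected higher genes all but fixed cluster 0 as their highest large cluster, which it was for 88. Second came cluster 1 for 53 of them, cluster 3 for 19, cluster 4 for 15 and cluster 2 for 1. Of all 2765 better detected genes that peaked in cluster 0, cluster 1 came second for 680 and cluster 3 for 1191.

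**Figure D2:**
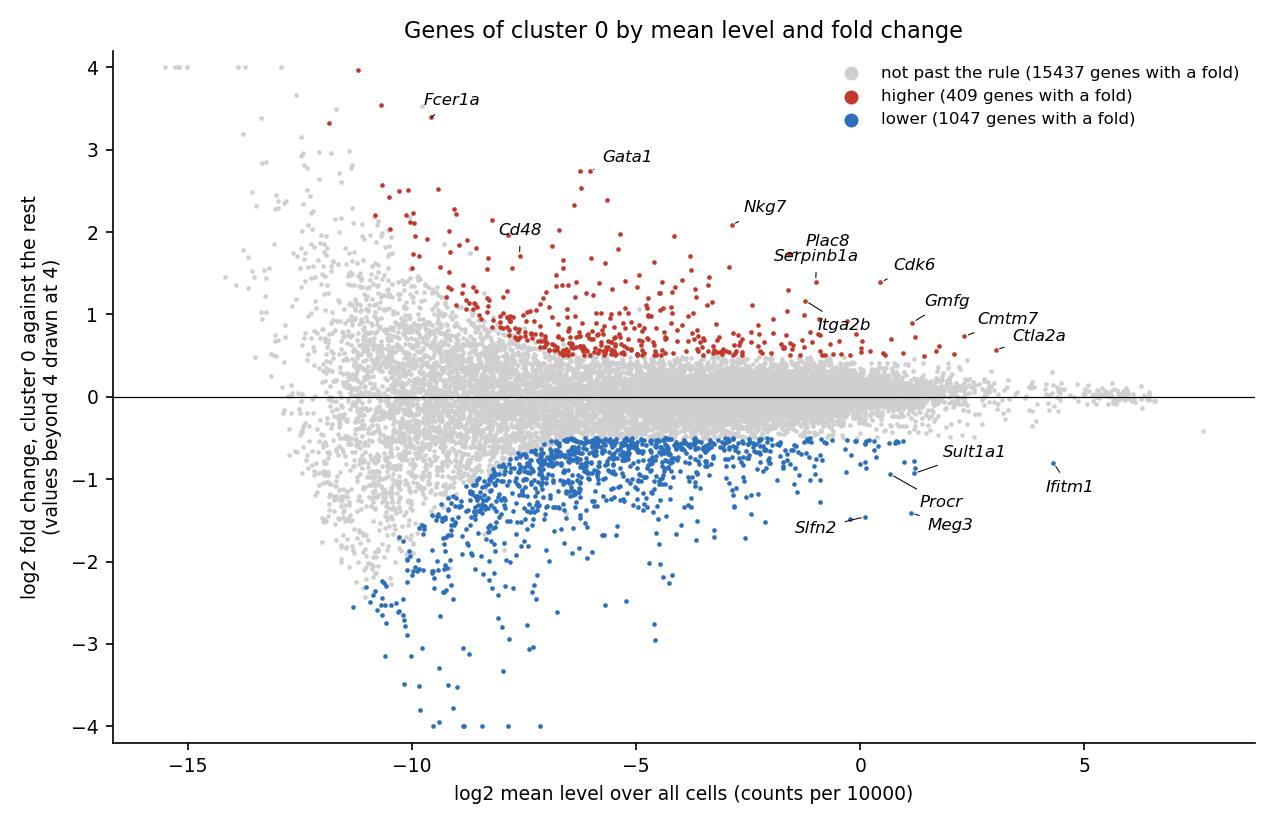
Log2 fold change of cluster 0 against all other cells (vertical axis) by log2 mean level over all cells (horizontal axis), 1 point per gene with a fold change, with genes past the rule in red (409 higher) and blue (1047 lower). A further 83 lower genes had no count in cluster 0 and are not drawn; large folds lie among scarce genes, while Cdk6, Gmfg and Cmtm7 combine a fold with a mean level above 1.

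The megakaryocyte side of cluster 0 was uneven. Of 19 measured platelet and megakaryocyte surface receptors, 8 were higher (42.1%, beside 2.4% of all detected genes) and none was lower. The median fold change was 0.41 in the authors' deposited table. Their summed level was 7.73 in cluster 0, against 6.89 to 7.65 in clusters 1 to 4 and 7.90 in cluster 5. The higher ones were 4 chains of the von Willebrand factor receptor complex (Gp1bb 1.56, Gp5 1.31, Gp9 0.75 and Gp1ba 0.56), Itga2b at 1.17, the thrombin receptor gene F2rl2 at 1.09, Treml1 at 0.87 and the thromboxane receptor gene Tbxa2r at 0.56 in the authors' deposited table. Gp9 stood at 0.470 in cluster 0 against 0.252 to 0.319 in clusters 1 to 4, and Gp5 at 0.147 against 0.0363 to 0.0701. Among the 10 better detected members of this list the median was 0.19, against 0.41 with the scarce ones included.

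Other classical genes of platelet-biased stem cells were not among those higher in cluster 0. Vwf, the adhesion protein whose reporter is used to isolate platelet-biased HSCs, stood at 0.388 in cluster 0 against 0.380 to 0.689 in clusters 1 to 4, with a fold change of -0.43 in the authors' deposited table. The deposited fold changes of Selp (-0.19), Itgb3 (-0.12), Clec1b (-0.38), Mmrn1 (-0.19) and Cd9 (0.04) were all short of the rule in the authors' deposited table. Of 20 cargo, signalling and cytoskeletal genes of platelets, 3 were higher (15%) and 2 lower (10%), beside 2.4% and 6.63% of all detected genes. The summed level of the 20 was 20.4 in cluster 0, against 19.3 to 20.0 in clusters 1 to 4 and 20.9 in cluster 5. The chemokine genes Pf4 and Ppbp were at 0.79 and 0.98 and the signalling protein gene Plek at 0.63, against -1.16 for Thbs1 and -0.53 for Serpine2 in the authors' deposited table.

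Of 22 regulators of megakaryocyte and erythroid transcription, 3 were higher (13.6%, beside 2.4% of all detected genes) and none was lower. The summed level of the 22 was 37.4 in cluster 0, within the 35.2 to 39.2 of clusters 1 to 4. Gata1, the master regulator of both lineages, had a fold change of 2.74 in the authors' deposited table at a low level, 0.0458 in cluster 0 against 0.00509 to 0.00761 in clusters 1 to 4. Runx3 was at 1.30 and the erythroid factor Klf1 at 0.70 in the authors' deposited table. The factors carried by most HSCs hardly differed, with deposited fold changes of 0.02 for Runx1, -0.02 for Fli1, 0.17 for Gata2, 0.01 for Nfe2 and 0.07 for Tal1 in the authors' deposited table. The label calls the cluster Cdk6-high, and the Cdk6 level describes it without testing that name. Of the megakaryocyte genes, those of the glycoprotein Ib-IX-V complex, Itga2b, Pf4 and Gata1 were higher, and Vwf, Selp and Itgb3 did not pass the rule.

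**Figure D3:**
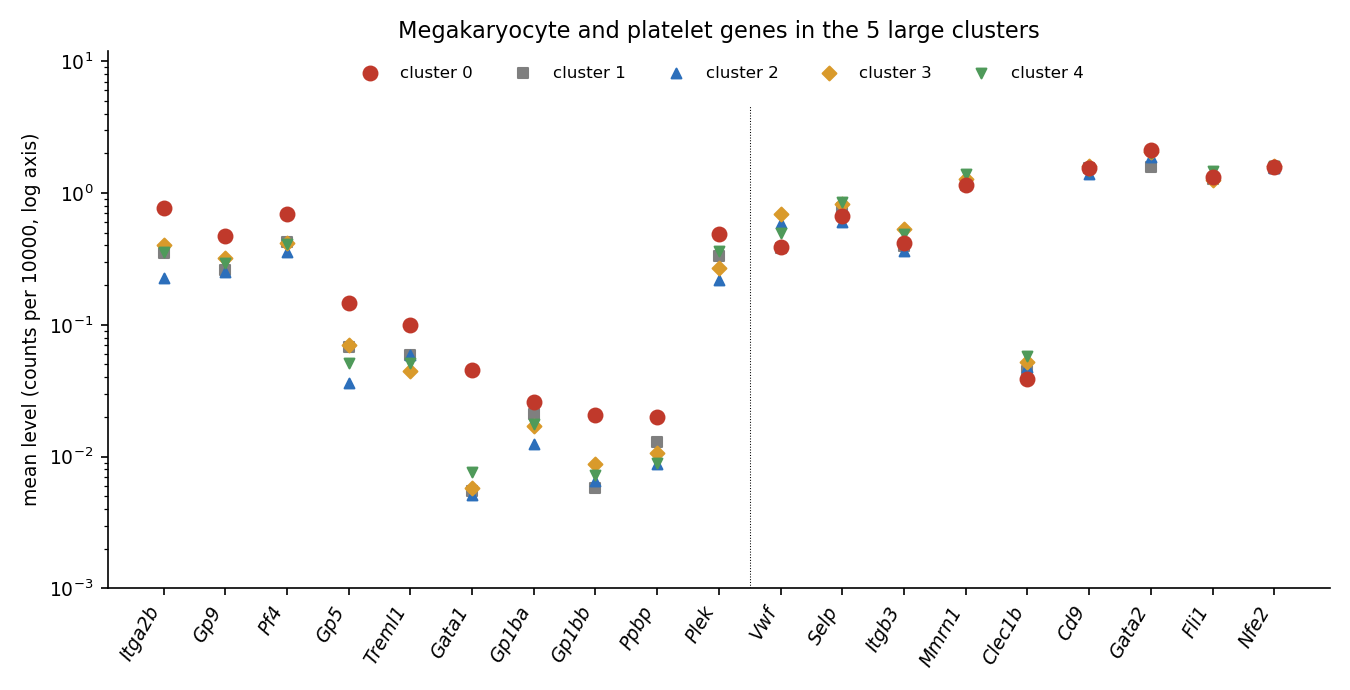
Mean level (counts per 10000, log axis) of 19 megakaryocyte and platelet genes in clusters 0 to 4, with the 10 genes past the rule left of the dotted line. Cluster 0 (large red circles) lies above the other 4 clusters for each gene on the left, such as Gata1 at 0.0458, and lies among or under them for Vwf, Selp, Itgb3, Mmrn1 and Clec1b.

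The regions upstream of 5 higher genes are shown because they hold the letters of a RUNX or a GATA match. The letters are TGTGGT for RUNX and AGATAA for GATA, each read on either strand. Runx3 and Gata1 belong to these families and were higher, and whether either factor acts on the 5 genes was not tested. Runx3 and Nkg7 are leading genes with a RUNX match, Crip1 is a leading gene with a GATA match, and Gp9 and Gp5 are platelet receptor genes with a RUNX and a GATA match. Each sequence is the 250 bases before the first start that RefSeq lists for the gene on GRCm38.p6, written 5′ to 3′ on the strand of the gene, with the matching letters in capitals.
Runx3: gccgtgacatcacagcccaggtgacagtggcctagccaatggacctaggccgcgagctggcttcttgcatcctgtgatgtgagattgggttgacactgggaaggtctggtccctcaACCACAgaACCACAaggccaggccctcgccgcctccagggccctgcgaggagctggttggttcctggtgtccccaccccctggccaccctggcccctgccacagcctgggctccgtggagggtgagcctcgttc
Nkg7: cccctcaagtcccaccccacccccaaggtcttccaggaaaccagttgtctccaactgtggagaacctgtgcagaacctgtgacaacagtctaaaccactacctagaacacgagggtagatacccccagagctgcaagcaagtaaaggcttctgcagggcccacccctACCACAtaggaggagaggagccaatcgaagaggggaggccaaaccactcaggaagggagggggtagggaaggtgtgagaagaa
Gp9: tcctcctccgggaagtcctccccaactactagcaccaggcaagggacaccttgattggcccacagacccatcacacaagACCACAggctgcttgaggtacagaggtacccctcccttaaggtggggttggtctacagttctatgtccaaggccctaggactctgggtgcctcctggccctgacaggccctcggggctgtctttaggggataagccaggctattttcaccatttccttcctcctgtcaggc
Gp5: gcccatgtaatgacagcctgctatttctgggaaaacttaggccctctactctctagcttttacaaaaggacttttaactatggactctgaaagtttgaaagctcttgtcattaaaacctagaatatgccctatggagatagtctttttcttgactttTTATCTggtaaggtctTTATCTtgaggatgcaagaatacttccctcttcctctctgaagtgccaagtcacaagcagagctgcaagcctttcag
Crip1: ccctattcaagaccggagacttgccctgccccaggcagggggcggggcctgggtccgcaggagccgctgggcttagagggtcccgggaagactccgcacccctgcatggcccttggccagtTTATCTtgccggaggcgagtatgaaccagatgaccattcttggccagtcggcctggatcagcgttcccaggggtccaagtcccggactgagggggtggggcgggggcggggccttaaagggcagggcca

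The Runx3 stretch (chr4:135120395-135120644, plus strand) holds 2 RUNX matches close together, on the strand opposite to the gene. Nkg7 (chr7:43436888-43437137, plus strand) and Gp9 (chr6:87777820-87778069, plus strand) hold 1 RUNX match each, Gp5 (chr16:30310782-30311031, minus strand) holds 2 GATA matches, and Crip1 (chr12:113151762-113152011, plus strand) holds 1 GATA match. None of the upstream windows of Cmtm7, Cdk6, Gmfg and Ramp1 holds either. Nor do those of the higher genes Itga2b, Gp1ba, Gp1bb, Treml1, Tbxa2r, Pf4, Ppbp, Plek and Gata1. F2rl2 holds 1 GATA match and Klf1 1 RUNX match. Of the leading genes with a window, 5 of 13 higher ones (Runx3, Nkg7, Crip1, Tmsb10 and Ctla2a) and 1 of 13 lower ones (Meg3) hold either. Of the windows of all detected genes, 2100 of 12580 (16.7%) hold either, as do 86 of 302 (28.5%) of all higher genes. For Gp5, Cmtm7, Tbxa2r and Plek, the bases after the start were not found in a GENCODE transcript of the gene. Windows of this kind were matched for 302 of the 409 higher genes and 12580 of the 17055 detected genes. The RUNX letters occurred in 58 of the 302 (19.2%), in 72 of the 789 matched lower genes (9.13%) and in 1411 of all 12580 (11.2%). The GATA letters occurred in 35 of the 302 (11.6%), in 6.59% of the lower genes and in 6.52% of all. These were 2 of 16 motifs searched on both strands. Among the others, TGATAA shares most of its letters with AGATAA and occurred in 5.96% of the higher genes and 4.17% of all, and the CpG form of the RUNX motif, TGCGGT, in 6.62% and 7.24%. The ETS form AGGAAG occurred in 36.4% against 28.5%, and the form CCGGAAG in 5.30% against 12.6%, AP-1 (TGANTCA) in 8.28% against 4.69% and TATAAA in 11.9% against 7.26%. The GC box GGGCGG occurred in 39.1% against 55.1%, CCAAT in 35.1% against 36.1%, the E-box CACGTG in 6.29% against 8.03%, and the STAT motif TTCNNNGAA in 5.96% against 6.08%. The rarest were the ISRE motif (3.64% against 2.64%), CRE (TGACGTCA, 1.66% against 2.49%), the NRF1 motif (0.331% against 1.45%) and E2F (TTTCGCGC, in none of the 302 against 0.477%).

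The windows differed in composition as well. Those of the higher genes had a median of 6.5 CpG, against 12 in the lower genes and 14 in all. Only 73.8% of the higher genes had a window, as did 73.8% of all detected genes, and no check on composition over these is given. A check was made for the better detected genes, where 72 of 89 higher genes (80.9%) and 6959 of 8528 genes in all (81.6%) had a window. There the RUNX letters occurred in 11 of 72 windows (15.3%) against 10.3% of all, and the GATA letters in 7 (9.72%) against 5.53%. Among windows with at most 14 CpG, a split chosen after the data were seen, the shares were 10 of 53 (18.9%) against 13.96% for RUNX and 6 of 53 (11.3%) against 9.96% for GATA. A match describes the letters in a window and not the binding of a factor.

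Genes that mark the exit from the stem cell state were higher in cluster 0. The median fold change of 20 such genes, most of them for surface proteins, was 0.65 in the authors' deposited table, or 0.30 among the better detected members. Of the 20, 1 was lower (5%) and 8 were higher (40%), beside 6.63% and 2.4% of all detected genes. They included Cd244a (2.02) and Cd48 (1.71), whose proteins are absent from HSCs in the usual sort, Il18r1 (0.99), Cd34 (0.92), the LIM protein gene Crip1 (0.70), whose product is intracellular, the tetraspanin gene Cd37 (0.67) and Flt3 (0.66) in the authors' deposited table. Cd48 and Cd244a were scarce even so, at 0.0113 and 0.0232 in cluster 0. Il6ra was the lower one, at -0.51 in the authors' deposited table.

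Early granulocyte and monocyte genes were higher in 4 of 20 cases (20%) and lower in 1 (5%), beside 2.4% and 6.63% of all detected genes. Plac8, a small cysteine-rich protein of myeloid and lymphoid progenitors, stood at 0.762 in cluster 0 against 0.133 to 0.282 in clusters 1 to 4. Ms4a3 (1.69), Cd52 (1.54) and Clec12a (0.92) were also higher, and the transcription factor gene Gfi1 was lower at -1.34 in the authors' deposited table. The granule genes Mpo and Prtn3 did not pass the rule, with 0.97 and -0.09 in the authors' deposited table and a level of 0.00555 for Mpo.

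Of 22 erythroid priming genes 6 were higher (27.3%) and 2 lower (9.09%), beside 2.4% and 6.63% of all detected genes. The higher ones beside Gata1 and Klf1 were the water channel gene Aqp1 (1.41), the erythropoietin receptor gene Epor (1.08), Hemgn (0.66) and Icam4 (0.56) in the authors' deposited table. The lower ones included Alas2, the haem synthesis gene of maturing red cells. Lymphoid priming genes went both ways, with 2 of 21 higher (9.52%) and 3 lower (14.3%), beside 2.4% and 6.63% of all detected genes. Tespa1 (2.53) and Flt3 were higher, and Cnn3 (-1.15), Satb1 (-0.62) and Notch1 (-0.51) were lower in the authors' deposited table. The median of the list was 0.07 over all members and -0.15 over the 5 better detected ones. Of 6 mast cell and basophil genes, Cpa3 (1.62) and Fcer1a (3.39) were higher in the authors' deposited table, at levels of only 0.0407 and 0.0045.

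**Figure D4:**
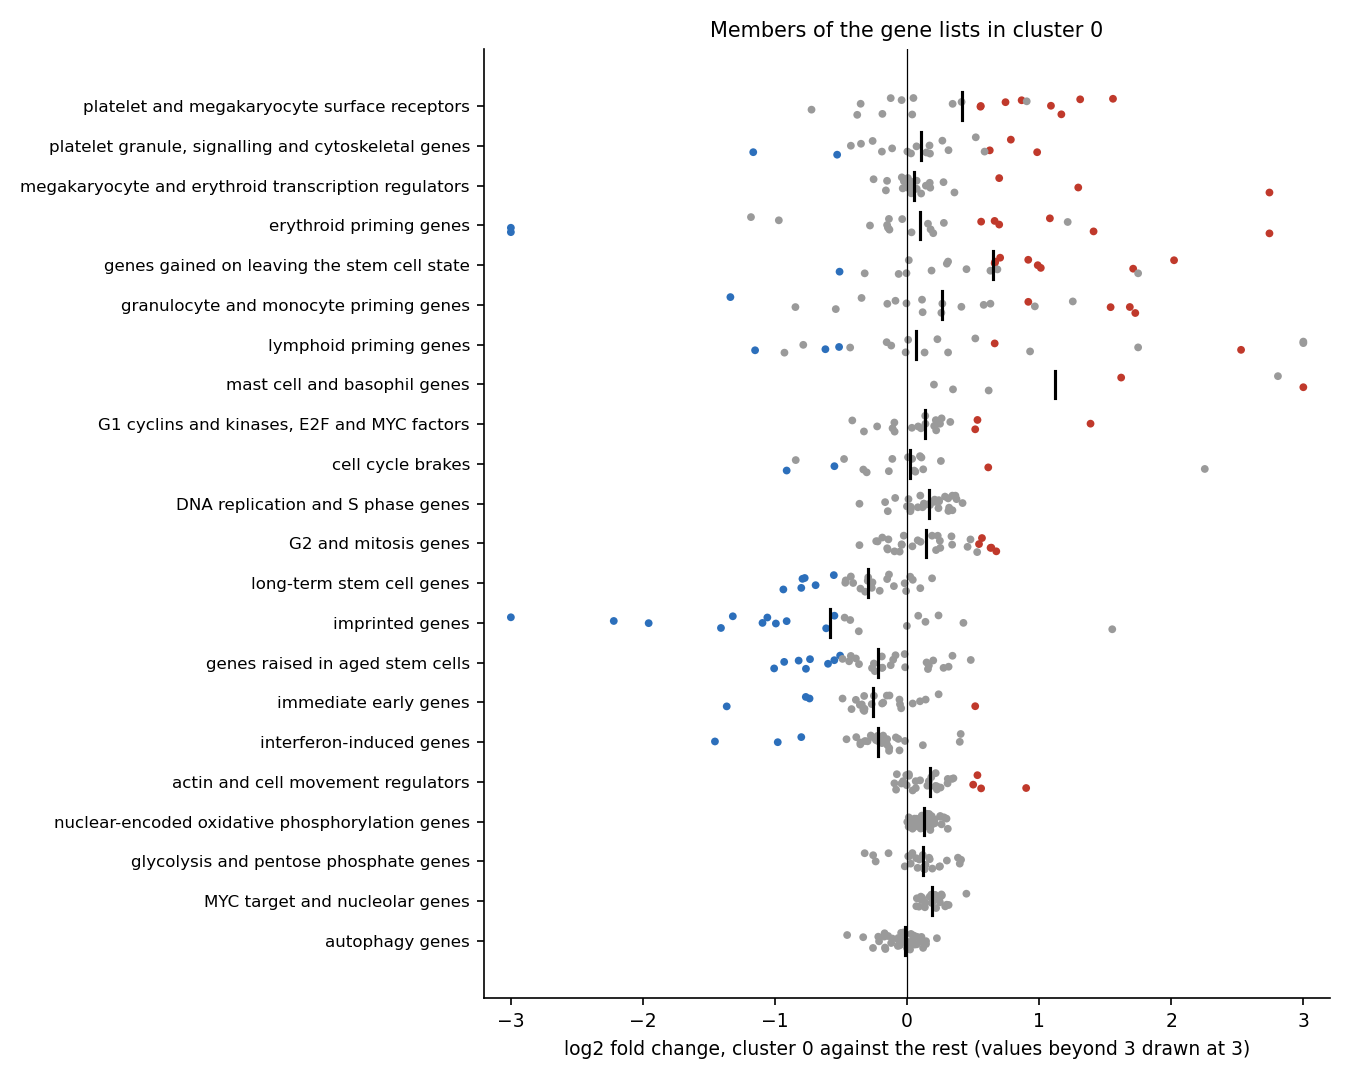
Log2 fold change of each measured member (points) of 22 gene lists in cluster 0 against all other cells, with members past the rule in red (higher) or blue (lower) and the list median as a black bar; members with no count in cluster 0 are not drawn. The medians run from -0.58 for imprinted genes to 1.12 for the 6 mast cell and basophil genes, and the oxidative phosphorylation list lies wholly above 0.

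Some marker lists of other mature cells had higher summed levels in cluster 0 as well. The summed level of the neutrophil markers was 0.230 in cluster 0 against 0.234 to 0.259 in clusters 1 to 4, with none of 10 called. Of all detected genes, 2.4% were higher and 6.63% lower. Macrophage markers summed to 3.35 against 2.66 to 3.13, of which Lyz2 alone made up most, with 1 of 10 higher (10%) and 1 lower (10%). Maturing megakaryocyte markers summed to 2.49 against 1.98 to 2.24, with 5 of 9 higher (55.6%). Mast cell markers summed to 0.0495 against 0.00974 to 0.0212, with 2 of 5 higher (40%). B, T and NK cell markers summed to 0.759 against 0.428 to 0.483, with Nkg7 the only 1 of 7 called (14.3%). Erythrocyte markers summed to 2.78 against 2.39 to 3.46, with 2 of 9 lower (22.2%). Endothelial markers summed to 1.45 against 1.84 to 3.11, with 3 of 10 lower (30%). Stromal markers summed to 0.0651 against 0.0460 to 0.0614, with 1 of 7 lower (14.3%). The neutrophil gene Mmp8 (0.000274), the B cell gene Ms4a1 (0.000414) and the NK cell gene Klrd1 (0.000319) lay under the level of 3 counts in cluster 0. The parts of mixed droplets or of other cells in these values were not tested.

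Around Cdk6 itself, some genes of G1 entry were higher. Of 20 cyclins, kinases, E2F and MYC factors of G1, 3 were higher (15%, beside 2.4% of all detected genes) and none was lower. The higher ones were the marker Cdk6 at 1.39, E2f1 at 0.53 and Myc at 0.52 in the authors' deposited table. The related kinase gene Cdk4 was at 0.25, and the D-type cyclin genes, whose products CDK6 needs, were at -0.33 for Ccnd1, -0.09 for Ccnd2 and -0.10 for Ccnd3 in the authors' deposited table. The level of Ccnd2 in cluster 0, 2.97, lay within the 2.71 to 4.04 of clusters 1 to 4. A high Cdk6 level thus stood beside D-type cyclin levels that were not raised.

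Cell cycle brakes went both ways, with 1 of 18 higher (5.56%) and 2 lower (11.1%), beside 2.4% and 6.63% of all detected genes. Cdkn1c, which encodes the p57 inhibitor of quiescent HSCs, stood at 0.478 in cluster 0 against 0.713 to 1.33 in clusters 1 to 4 (fold change -0.91 in the authors' deposited table). Ndn was lower as well, at -0.55, while Cdkn2c, which encodes the p18 inhibitor of CDK4 and CDK6, was higher at 0.61 in the authors' deposited table. Cdkn2c stood at 0.282 in cluster 0 against 0.0967 to 0.227. The genes of p21 (Cdkn1a, -0.33) and p27 (Cdkn1b, 0.01) were short of the rule in the authors' deposited table.

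Replication genes lay mostly slightly above the other cells without a called member, and some division genes were higher. None of 30 S phase genes passed the rule, with 25 of 30 above 0 and a median of 0.17 in the authors' deposited table. Of 30 G2 and mitosis genes 5 were higher (16.7%, beside 2.4% of all detected genes). They were Ckap2 (0.68), Cks2 (0.64), Cenpf (0.63), Kif11 (0.57) and Top2a (0.54) in the authors' deposited table. Of the 30, 18 lay above 0, with a median of 0.15 in the authors' deposited table. Of all 17055 detected genes, 8696 lay above 0. Top2a stood at 0.145 in cluster 0 against 0.0970 to 0.102 in clusters 1 to 4, and the proliferation marker gene Mki67 at 0.0248 against 0.0162 to 0.0234. Whether a small number of dividing cells or a small rise in all cells lies behind these means cannot be told apart.

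Genes of energy and growth lay slightly above the other cells without a called member. All 53 nuclear-encoded oxidative phosphorylation genes had a fold change above 0 and none passed the rule, with a median of 0.13 and a highest value of 0.31 for Atp5b in the authors' deposited table. Cluster 0 was the highest of the 5 large clusters for 45 of these 53 genes (84.9%), against 27.3% of all detected genes and 32.4% of the better detected ones. The 13 mitochondrially encoded genes had a median of 0.00 in the authors' deposited table, and cluster 0 was the highest of the 5 for none of them. All 26 MYC target and nucleolar genes were above 0, with a median of 0.19 and 0.45 for the spermidine synthase gene Srm in the authors' deposited table, but cluster 3 had a summed level of 42.3 against 42.0 in cluster 0. Glycolysis and pentose phosphate genes had a median of 0.12, led by the transaldolase and transketolase genes Taldo1 (0.41) and Tkt (0.40) in the authors' deposited table.

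Autophagy genes, the subject of the study, did not set cluster 0 apart. None of 41 was called, 18 lay above 0, and the median was -0.01 in the authors' deposited table. The lowest was Foxo1 at -0.45, followed by the LC3-family gene Gabarapl1 at -0.33 and the cargo receptor gene Sqstm1 at -0.26 in the authors' deposited table. Map1lc3b, which encodes LC3B, stood at 3.42 in cluster 0 against 3.61 to 4.01 in clusters 1 to 4.

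The median of 30 actin and movement regulators was 0.17 in the authors' deposited table. Of the 30, none was lower and 4 were higher (13.3%, beside 2.4% of all detected genes). Beside Gmfg (0.90), Tmsb10 (0.56) and Coro1a (0.50) these included the intermediate filament gene Vim at 0.53 in the authors' deposited table. In the families of other marker genes, called members went both ways. Of 20 CMTM and tetraspanin genes, Cmtm7 and Cd37 were higher (10%) and Cd82 was lower (5%), at -0.57 in the authors' deposited table. Of 21 serpins, cystatins and their proteases, Serpinb1a and Ctla2a were higher (9.52%). Serpina3f (-1.06) and Serpine2 were lower (9.52%) in the authors' deposited table. Over all detected genes the shares were 2.4% higher and 6.63% lower. The medians of these lists were -0.05 and -0.09 in the authors' deposited table. Ramp1 contrasted with its relatives: Ramp2, which directs the same receptor towards adrenomedullin, stood at 0.255 in cluster 0 against 0.399 to 1.16 in clusters 1 to 4, and the receptor gene Calcrl at 0.277 against 0.293 to 0.402. Of 17 high-mobility-group and related genes, Hmgb3 was higher (5.88%), and Tox (-0.69) and Hmga2 (-0.56) were lower (11.8%) in the authors' deposited table.

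Several genes of long-term stem cells were lower in cluster 0. Of 27 such genes none was higher and 6 were lower (22.2%, beside 6.63% of all detected genes), with a median of -0.29 in the authors' deposited table, and cluster 0 was the lowest of the 5 large clusters for 20 of them (74.1%) against 23.7% of all detected genes and 20.5% of the better detected ones. Procr, the EPCR surface marker of long-term HSCs, stood at 0.942 in cluster 0 against 1.67 to 2.09 in clusters 1 to 4. Mllt3, a regulator of HSC self-renewal, stood at 1.50 against 2.29 to 3.33. Mecom, which encodes the EVI1 stem cell factor, stood at 1.26 against 1.60 to 2.18, and Ly6a, the Sca-1 gene, at 1.26 against 1.80 to 2.67. For all 4 genes cluster 0 was the lowest and cluster 2 the highest of the 5 large clusters. Among the smaller ones, cluster 8 was lower than cluster 0 for Procr (0.918), Mllt3 (1.45) and Ly6a (0.879), and cluster 6 with 310 cells for Mecom (1.08). Fgd5 was also lower at -0.69, while Hlf (-0.47), Hoxb5 (-0.29), Slamf1 (-0.02), Kit (0.10) and Esam (0.19) did not pass the rule in the authors' deposited table.

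Ifitm1, an interferon-inducible membrane protein abundant in HSCs, stood last in the authors' deposited table and had a level of 12.9 in cluster 0 against 21.0 to 27.9 in clusters 1 to 4 and 11.4 in cluster 7 with 267 cells. Slfn2, an interferon-responsive regulator of quiescence in immune cells, stood at 0.473 against 0.755 to 2.25. Of 30 interferon-induced genes 3 were lower, or 10% beside 6.63% of all detected genes (Slfn2 at -1.45, Ifit3 at -0.98 and Ifitm1 at -0.80) and none higher, with a median of -0.22 in the authors' deposited table. Of 30 cytokine receptor, STAT and feedback genes, none was higher and 5 were lower (16.7%, beside 6.63% of all detected genes). The lower ones were the feedback inhibitor genes Socs2 (-1.16), Cish (-0.94) and Socs1 (-0.50), the lymphotoxin gene Ltb (-0.87) and Csf2rb2 (-0.54) in the authors' deposited table. Socs2 and Cish are targets of STAT5, a transcription factor that cytokine receptors activate, and Socs2 stood at 0.194 in cluster 0 against 0.307 to 0.846 in clusters 1 to 4.

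Imprinted genes, several of which restrain growth and help keep HSCs quiescent, had the lowest median of the 28 gene lists in cluster 0. Of 20 measured, 11 were lower (55%, beside 6.63% of all detected genes) and none was higher. The median was -0.58 in the authors' deposited table. Meg3, a maternally expressed non-coding RNA, stood at 0.992 in cluster 0 against 1.34 to 4.38 in clusters 1 to 4, at 5.05 in cluster 5 and at 0.567 in cluster 8. Its neighbours in the Dlk1 to Meg3 locus, Rian (-1.32), Dlk1 (-1.06) and Mirg (-0.99), were lower too in the authors' deposited table, and Rian and Meg3 were both highest of the 5 large clusters in cluster 2. Cdkn1c, Plagl1 (-2.22), Igf2 (-1.96), Peg3 (-1.09), Igf2r (-0.61) and Ndn (-0.55) made up most of the rest in the authors' deposited table. H19 was called as well, but its level in cluster 0, 0.000163, lay under that of 3 counts in this cluster (0.000469), so no fold is given for it.

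Genes raised in aged HSCs had a median of -0.22 in the authors' deposited table. Of the 32 measured, none was higher and 8 were lower (25%, beside 6.63% of all detected genes). They included the receptor gene Gpr183 (-1.01), the sulfotransferase gene Sult1a1 (-0.93), the netrin receptor gene Neo1 (-0.82), Osmr (-0.77), Alcam (-0.74) and Tm4sf1 (-0.60) in the authors' deposited table. Sult1a1 stood at 1.37 in cluster 0 against 2.20 to 2.86 in clusters 1 to 4 and 0.568 in cluster 8. Immediate early genes had a median of -0.26, with Atf3 (-1.37), Klf6 (-0.77) and Klf2 (-0.74) lower and Myc higher of 26 in the authors' deposited table. Of the 26, 11.5% were thus lower and 3.85% higher, beside 6.63% and 2.4% of all detected genes. Fos stood at 1.87 in cluster 0, which was above the 1.60 of cluster 3 and under the 2.28 to 3.27 of clusters 1, 2 and 4. The shares of young and old or of fasted cells in cluster 0 were not analysed here.

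The lowest endothelial marker was the tight junction gene Cldn5, at 0.368 in cluster 0 against 0.726 to 1.75 in clusters 1 to 4 and 0.331 in cluster 8. Tns2, a focal adhesion protein, had the lowest fold change of the 15 last-listed genes, -1.71 in the authors' deposited table, with a level of 0.0614 against 0.147 to 0.321. Most of the better detected lower genes peaked in the same other cluster. Of the 167 genes, 128 had their highest level among the 5 large clusters in cluster 2, while 28 peaked in cluster 3, 10 in cluster 4 and 1 in cluster 1. Of the better detected genes that did not peak in cluster 0, 37.1% had their highest level in cluster 2.

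Most pathway scores of cluster 0 differed from those of the other cells by small amounts. The authors' deposited table scored 1531 of 2922 pathways higher in cluster 0 (52.4%) and 764 lower (26.1%) at an adjusted p under 0.05 over cells. With so large a share called, the size of a change says more than its call: 317 of the higher and 196 of the lower pathways had a log2 fold change of at least 0.1 in size. First in the authors' deposited table stood the BioCarta EFP set (0.36), the WikiPathways set on SMARCB1 tumour suppressor activity (0.23), the BioCarta G1 set (0.25) and the Reactome pentose phosphate set (0.25). The KEGG haematopoietic cell lineage set (0.21) and the BioCarta IL17 set (0.72) stood among the first 8 as well in the authors' deposited table. Pathways share genes and their members were not analysed here.

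By theme, 25 of 28 RUNX pathways were higher and 2 lower, beside the 52.4% and 26.1% of all pathways, with a median of 0.08 against 0.02 over all pathways in the authors' deposited table. The highest were the Reactome sets on RUNX3 in immune response and cell migration (0.47) and on RUNX3 regulation of CDKN1A (0.45) in the authors' deposited table, although Cdkn1a itself was at -0.33. All 13 glycolysis and pentose phosphate pathways (median 0.09), 13 of 14 oxidative phosphorylation pathways (0.08), 12 of 14 S phase pathways (0.08), 11 of 13 pathways with G1 in their name (0.08) and all 5 proteasome pathways (0.08) were higher in the authors' deposited table. The G1 names include the BioCarta EDG1 set (-0.04 in the authors' deposited table), which is named for a lipid receptor and not for the cell cycle phase. Whether the RUNX3 and G1 sets hold the markers Runx3 and Cdk6 was not analysed, so their scores cannot be read apart from those markers. Platelet and coagulation pathways were near the background with 15 of 25 higher, 5 lower and a median of 0.02 in the authors' deposited table. Interferon pathways were lower in 9 of 10 cases and higher in 1, with a median of -0.06 in the authors' deposited table. JAK-STAT and interleukin pathways went both ways, with 45 of 92 lower, 35 higher and a median of -0.02 in the authors' deposited table. Of 15 autophagy and lysosome pathways 8 were higher and 4 lower, with a median of 0.01 in the authors' deposited table.

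**Figure D5:**
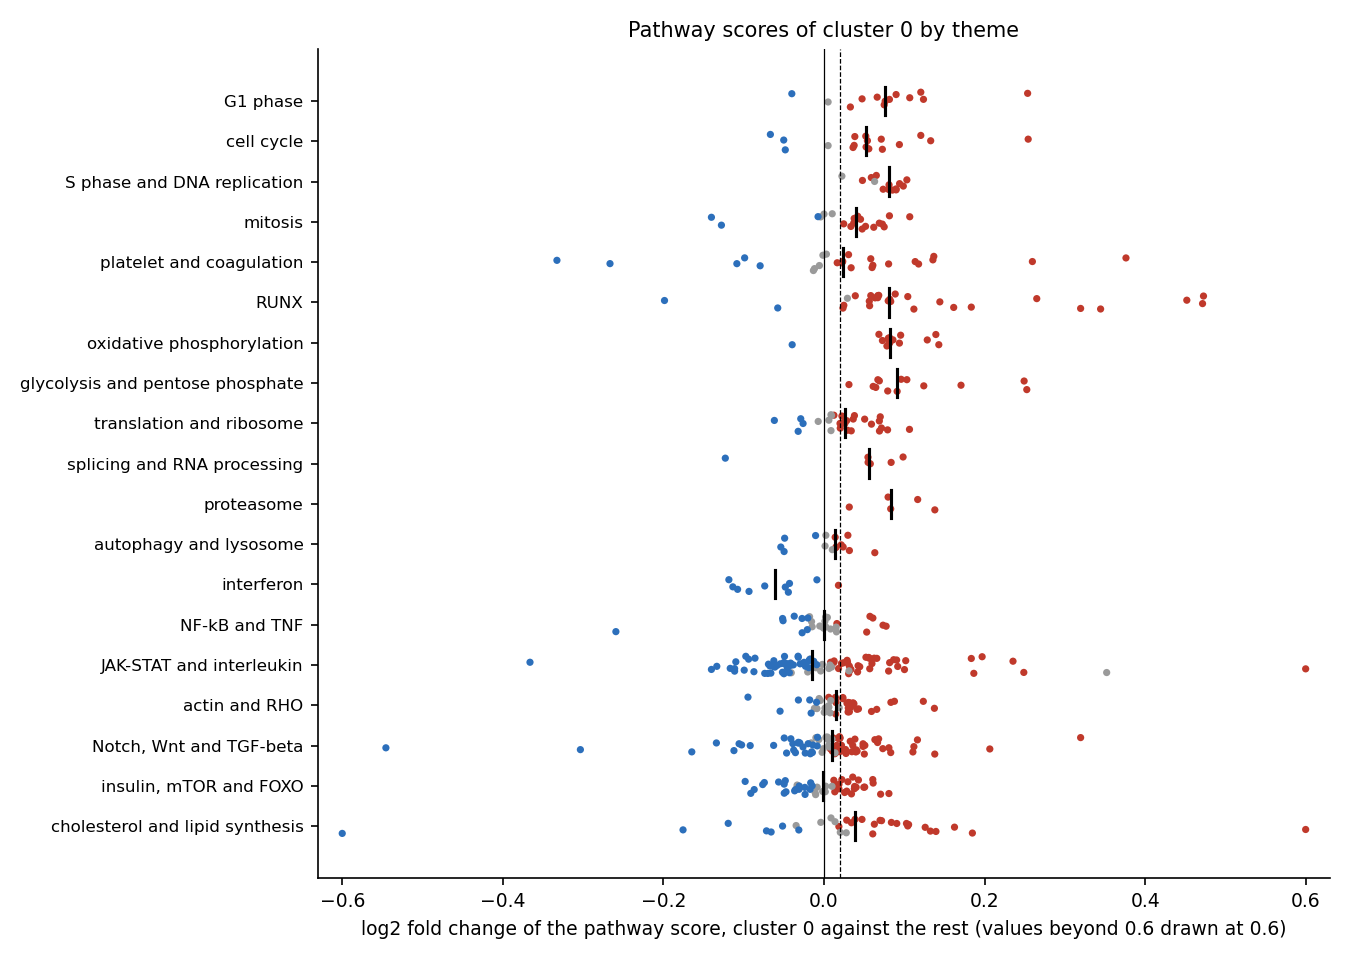
Log2 fold change of each pathway score in cluster 0 against all other cells (points, 19 themes), coloured red (higher) or blue (lower) at an adjusted p under 0.05 over cells, with the theme median as a black bar and the median of all pathways (0.02) as a dashed line. RUNX, G1, oxidative phosphorylation and pentose phosphate sets lie mostly to the right, and interferon sets to the left.

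At the other end some pathway scores followed 1 gene. The arylamine and tamoxifen metabolism sets, last in the authors' deposited table at -0.93, had the fold change of Sult1a1 in all 11 clusters within 0.001. The estrogen metabolism (-0.46) and sulfation (-0.43) sets stood among the last 8 beside them in the authors' deposited table. In all, 26 of the 2922 pathways matched 1 gene in this way, and 8 of these were called in cluster 0.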

How the data were processed

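HSCs of 6 libraries were profiled by droplet single-cell RNA sequencing. Per the submitters' processing notes, Scanpy and the mm10 build were used; no aligner, cell filter, doublet handling or clustering setting is named in the sources used here. For each of the 11 clusters the authors deposited 2 tables, of genes and of pathways, 22 in all, which set its cells against the rest. In the gene tables the authors give the mean as the log2 of counts per 10000 and a log2 fold change, with a p-value and an adjusted p-value over cells. The deposited pathway tables give the authors' score, which is a signed statistic over cells, with a log2 fold change and p-values; 12 pathways carry no fold.

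Cell numbers were solved from the deposited p-values of 19 genes seen in 1 cell. Levels per cluster were solved from the mean, the fold changes and these numbers, taking the mean as one of log values. The deposited means add up to 10000, as arithmetic means would and means of log values would not. Levels under both readings are approximate, and in cluster 0 the readings differed by at most 6.2%. The summed levels of clusters 0 to 5 came to 10023 to 10075. Those of clusters 8 and 9 came to 10152 and 10147, but those of clusters 6, 7 and 10 to 9248, 8208 and 11123. Levels in clusters 6, 7 and 10 are therefore less exact, and small differences between them and cluster 0 are not settled. A fold change under -10 was read as no count, and a limit for a count of 0 was 3 counts, for counting error only. Both solving steps were tested on simulated data, the cell numbers on a single simulated gene. The simulated clusters were alike in size and depth, so the levels of clusters as small as 6 to 10 were not tested.

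Named genes were the 6 markers, the 15 first-listed higher and 15 last-listed lower genes, up to 6 called members per list and direction, and all members of the G1, regulator and platelet lists; the text prints part of these, and some genes are not reported here. Neighbours of the threshold and further list members were chosen after their values were seen. The cluster, the 28 gene lists, the 8 marker lists and the 19 pathway themes were chosen with earlier results of these data known. Promoters came from RefSeq, matched by symbol or synonym, and coordinates from GENCODE M21. Tools were Python 3.11.15, numpy 2.4.6, pandas 2.3.3, SciPy 1.17.1 and matplotlib 3.10.9.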

Additional observations from a re-analysis of the deposited data

How the results depend on the processing

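Counts of genes depended on the thresholds. At a least log2 fold change of 0.25 cluster 0 had 1118 higher and 1878 lower genes, and at 1 it had 130 and 522. At a deposited adjusted p under 0.001 the counts were 267 and 690, and among genes at or above the median mean level they were 89 and 167. With a least fold change of 0.1 there were 317 higher and 196 lower pathways. Taking the median fold from every fold moved no count of genes or pathways by more than 1.5 times. Restricted to better detected members, 8 of 37 medians moved by over 0.1, and that of lymphoid priming genes turned from 0.07 to -0.15. The 37 include all detected genes and the better detected genes as a whole, and the latter cannot move. The mast cell and stromal marker lists had no better detected member and are not among them. The 30 levels of leading genes held under an arithmetic reading of the mean. No paired analysis was possible because each age and feeding group was 1 library of 1 mouse and the tables pool the libraries, which also kept any library from being left out. Differences within cluster 0, between animals and between feeding conditions were out of reach of these tables.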
